A study of Homo sapiens with 6 samples.

Results

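HMGA1, UHRF1, CHAF1A and CHAF1B were taken as 1 group of chromatin genes, picked by name from the deposited table with their change already known. They are 4 of its 1630 genes, each with 1 row. Total RNA was sequenced from U87MG, an established human glioblastoma line, in 3 libraries with a hairpin against CREPT (labelled shCREPT, genotype CREPT Knockdown) and 3 libraries with a control hairpin (labelled shControl, genotype NC). CREPT is the protein made from RPRD1B, which binds the tail of RNA polymerase II. RPRD1B itself has no row in the deposited table, so its level in these libraries is not known here. The series title links it to proliferation and to the immune surroundings of glioblastoma, and the question for these 4 genes is how their transcripts stood once CREPT was targeted. The labels give no time after transduction, no count of hairpin sequences and no word on whether a line was 1 clone. Nor do they tie each library to a culture of its own: a p-value here then rests on how much the libraries of a group differ, and that may be technical alone. The design text speaks of wildtype cells, where the sample labels give the controls a hairpin.

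Each time a cell copies its DNA it must also rebuild the chromatin on it. CAF-1 (chromatin assembly factor 1) travels with the sliding clamp PCNA and deposits new histones H3 and H4 behind the fork. CHAF1A encodes its large subunit, which contacts PCNA, and CHAF1B encodes the middle subunit, a WD-repeat protein. UHRF1 recognises CpG sites methylated on the old strand only, and brings DNMT1 to copy the mark onto the new strand. These 3 genes are known targets of the E2F transcription factors in dividing cells. HMGA1 is another kind of protein, a small architectural factor whose AT-hooks grip the minor groove of AT-rich DNA. It is abundant in embryonic cells and in many tumours, and MYC is a known regulator of it.

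The promoters are shown because UHRF1, CHAF1A and CHAF1B are known E2F targets in dividing cells. Whether E2F factors had a part in the changes of the 4 genes was not tested. RefSeq windows on GRCh38.p14, from 250 bases before to 50 after a transcript start, matched all 4 symbols. HMGA1 has 2 such windows, UHRF1 has 3, and CHAF1A and CHAF1B have 1 each. All 4 genes lie on the plus strand. The windows printed, the first of each gene, are chr6:34236623-34236922 for HMGA1, chr19:4909251-4909550 for UHRF1, chr19:4402390-4402689 for CHAF1A and chr21:36385142-36385441 for CHAF1B. Capitals mark a GC box (GGGCGG) in HMGA1, and an E2F core in the other 3, in each case on either strand. The core was searched as TTCCCGC, with TTCGCGC as a first variant, TTGCCGC as another and TTGGCGC as the last; these letters were chosen with the sequences in view.
HMGA1: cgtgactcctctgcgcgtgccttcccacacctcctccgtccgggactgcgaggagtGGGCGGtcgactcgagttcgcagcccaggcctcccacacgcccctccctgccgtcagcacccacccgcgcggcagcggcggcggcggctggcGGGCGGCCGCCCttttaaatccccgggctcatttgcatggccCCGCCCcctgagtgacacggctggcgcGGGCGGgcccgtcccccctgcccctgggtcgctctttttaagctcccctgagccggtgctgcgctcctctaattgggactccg
UHRF1: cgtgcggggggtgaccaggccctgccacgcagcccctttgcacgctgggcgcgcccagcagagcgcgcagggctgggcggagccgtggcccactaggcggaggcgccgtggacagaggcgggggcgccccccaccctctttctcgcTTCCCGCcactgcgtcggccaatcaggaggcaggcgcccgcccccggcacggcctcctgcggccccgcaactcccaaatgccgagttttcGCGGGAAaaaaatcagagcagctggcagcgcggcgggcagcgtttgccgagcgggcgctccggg
CHAF1A: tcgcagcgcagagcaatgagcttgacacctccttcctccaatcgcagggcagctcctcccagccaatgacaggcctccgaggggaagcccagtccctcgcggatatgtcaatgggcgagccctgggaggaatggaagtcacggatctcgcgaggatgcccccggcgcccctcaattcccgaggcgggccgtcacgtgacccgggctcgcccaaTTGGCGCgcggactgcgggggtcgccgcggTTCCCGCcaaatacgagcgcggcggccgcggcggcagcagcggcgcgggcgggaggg
CHAF1B: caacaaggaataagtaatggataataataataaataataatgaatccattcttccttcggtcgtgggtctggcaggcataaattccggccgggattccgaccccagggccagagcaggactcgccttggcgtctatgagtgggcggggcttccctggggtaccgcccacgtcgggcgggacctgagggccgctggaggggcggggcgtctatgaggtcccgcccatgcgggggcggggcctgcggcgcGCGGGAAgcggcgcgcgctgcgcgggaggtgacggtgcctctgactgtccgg

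The E2F core was present in the printed windows of UHRF1 (2 matches), CHAF1A (2) and CHAF1B (1), and in neither window of HMGA1. In UHRF1 the matches began at positions −104 and −14, counted from the transcript start at 0. In CHAF1A they began at −37, where a match overlaps an inverted CCAAT box, and at −7. In CHAF1B the match began at −2. Of all 35116 RefSeq windows of this length, 13.0% hold an E2F core. The 3 windows of UHRF1 held 2, 1 and 0 matches. The GC box, found in 45.0% of all windows, was present in all 4 genes. The first windows held 5 in HMGA1, 2 in UHRF1, 1 in CHAF1A and 6 in CHAF1B, and the second window of HMGA1 held 0. CHAF1A alone of the 4 held the E-box CACGTG, the letters bound by MYC with MAX (7.26% of all windows), and none held the AP-1 letters TGAGTCA (4.95%) or the cell cycle homology region (CHR), searched as TTTGAA and in its variant as TTCGAA (16.4%). The printed windows were 64.3 to 74.0% G and C, against a median of 58.7% over all windows. A match describes the letters only; binding was not measured.

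**Figure D1:**
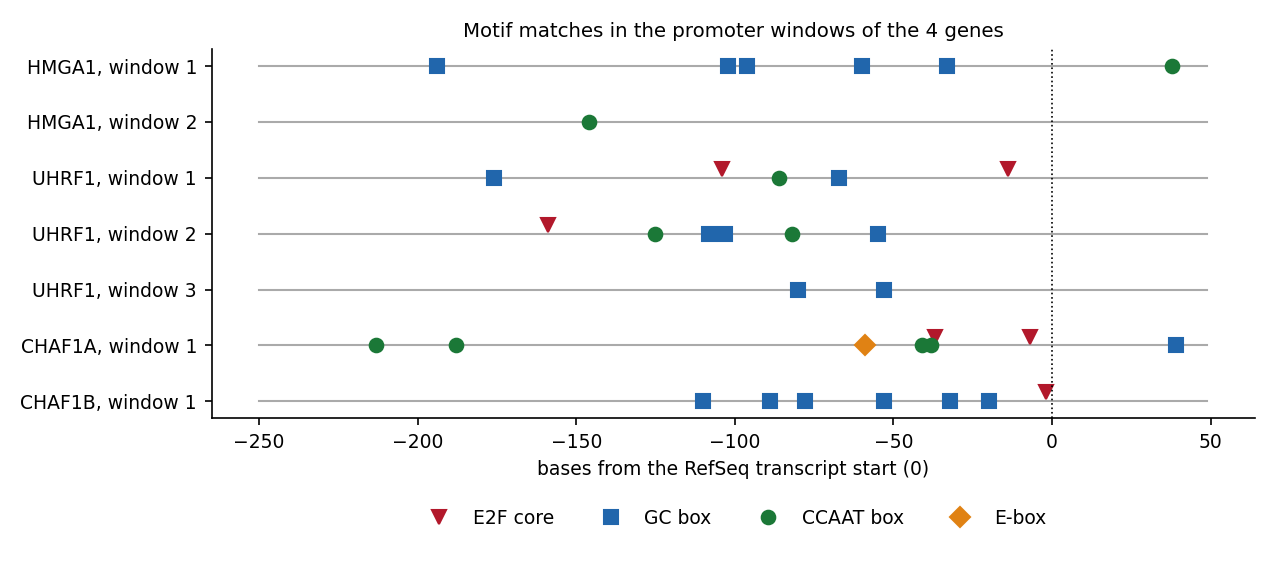
Motif matches on either strand in the 7 RefSeq promoter windows of the 4 genes, by distance in bases of the first matched base from the transcript start (0). Triangles for the E2F core appear in windows of UHRF1, CHAF1A and CHAF1B and in no window of HMGA1. GC boxes appear in windows of all 4 genes, with 5 in the first window of HMGA1 and 6 in that of CHAF1B.

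All 4 genes were higher in shCREPT, HMGA1 by 5.84-fold and the other 3 by 2.09- to 2.33-fold (ratio of mean normalized values). The values are normalized expression as the authors deposited them; whether they are scaled by gene length is not stated, so levels are compared within a gene and not between genes. Fold changes are shCREPT over shControl, and a log2 change is the difference of mean log2(value + 1), which understates the change of low genes. In RNA from whole cultures, more cells in S phase and more of a transcript per cell cannot be told apart.

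HMGA1 had values of 287.96, 277.01 and 225.87 in shCREPT, against 42.18, 45.42 and 47.79 in shControl. The groups were far apart, and the lowest shCREPT library was still 4.73-fold above the highest shControl library. The means were 264 ± 33.1 in shCREPT and 45.1 ± 2.82 in shControl (SD, n = 3 each), a log2 change of 2.51 ± 0.12 (SE). Replicate 3 stood below the other shCREPT libraries. Its spread in shCREPT, a coefficient of variation of 12.6%, was close to the median of 12.7% over the 1184 rows that were tested, those reaching 1 in 3 or more libraries. All 4 genes passed that filter.

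UHRF1 had values of 82.54, 83.57 and 86.55 in shCREPT, against 34.87, 37.42 and 36.03 in shControl. It was the steadiest of the 4, with coefficients of variation of 2.47% in shCREPT and 3.54% in shControl, and 5.83% and 10.4% of the 1184 rows had a smaller one. The means were 84.2 ± 2.08 in shCREPT and 36.1 ± 1.28 in shControl (SD, n = 3 each), 2.33-fold, with a log2 change of 1.20 ± 0.04 (SE). Replicate 3 was its highest shCREPT library, where it was the lowest for HMGA1, CHAF1A and CHAF1B.

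CHAF1A had values of 87.11, 87.64 and 82.19 in shCREPT, against 37.01, 30.95 and 42.74 in shControl. The shCREPT libraries lay close together and the shControl libraries were scattered: the coefficient of variation in shCREPT was 3.51%, smaller in 9.80% of the 1184 rows, and that in shControl was smaller in 58.6% of them. The means were 85.6 ± 3.01 in shCREPT and 36.9 ± 5.90 in shControl (SD, n = 3 each), 2.32-fold, with a log2 change of 1.20 ± 0.13 (SE). Even so the lowest shCREPT library was 1.92-fold above the highest shControl library.

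CHAF1B had values of 13.28, 12.94 and 12.04 in shCREPT, against 6.33, 5.78 and 6.16 in shControl. The groups were again apart, by 1.90-fold between their nearest libraries. The means were 12.8 ± 0.641 in shCREPT and 6.09 ± 0.282 in shControl (SD, n = 3 each), 2.09-fold, with a log2 change of 0.96 ± 0.05 (SE). Because its values are low, the added 1 lowers this change, and the log2 ratio of the means was 1.07.

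**Figure D2:**
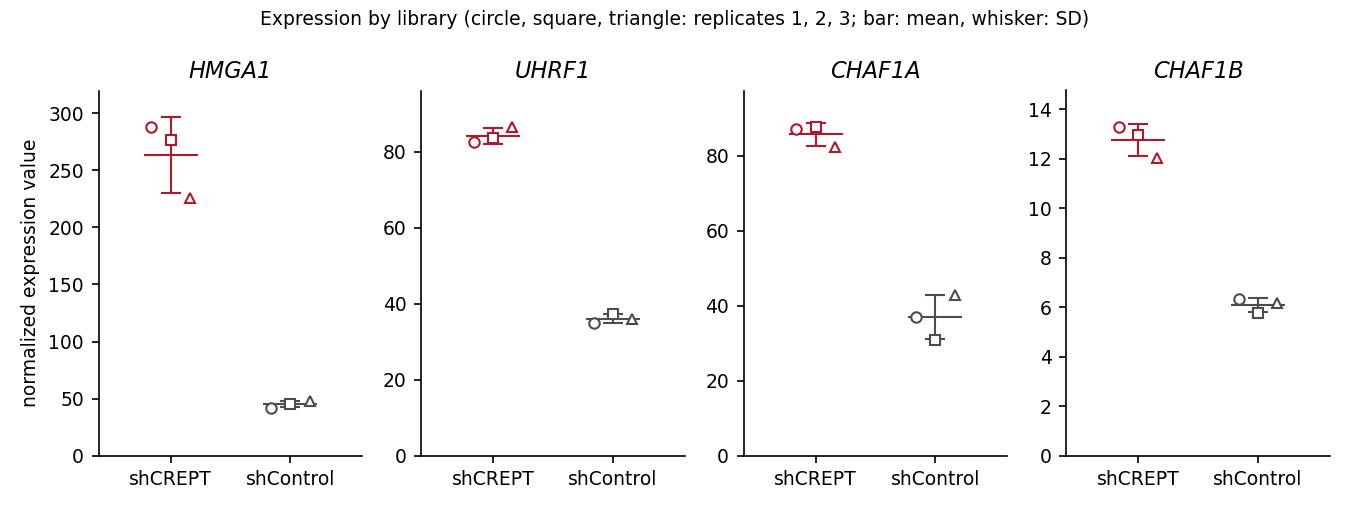
Normalized expression value of each gene in each library, on linear axes that start at 0; points are the 3 libraries of a group, the bar is their mean and the whisker their SD. In all 4 panels every shCREPT library lies above every shControl library, with HMGA1 at 225.87 to 287.96 in shCREPT and 42.18 to 47.79 in shControl.

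These differences are a description, since the genes were chosen for them; the fit over all rows included them, and its p-values for them are not used. The table itself lists only genes the authors marked significant, with a smallest absolute log2 fold of 1.0009 and a largest adjusted p of 0.0497 in the authors' deposited table. It marks 40.3% of its 1630 rows up. Over the 1184 rows tested, groups did not overlap with shCREPT above in 40.2%, so 4 of 4 here reads only as the choice that was made. In the authors' deposited table the log2 folds of HMGA1, UHRF1, CHAF1A and CHAF1B are 2.51, 1.21, 1.11 and 1.08. By that fold HMGA1 ranks 112 among the 657 rows the authors' deposited table marks up, and UHRF1, CHAF1A and CHAF1B rank 477, 563 and 591. By that fold HMGA1 was above the median of the rows marked up, a log2 fold of 1.51 in the authors' deposited table, and the other 3 were below it.

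Ratios inside a library do not depend on how libraries were scaled to each other. Here they restate the changes known when the 4 genes were picked, and the 3 ratios with HMGA1 share its values. The share of all gene pairs whose ratios separate was not counted. Overlap between 3 and 3 libraries does not show that 2 genes changed equally. The log2 ratio of CHAF1A to CHAF1B was 2.71, 2.76 and 2.77 in shCREPT, against 2.55, 2.42 and 2.79 in shControl. The groups overlapped, and the difference of 0.16 ± 0.11 (SE) corresponds to a ratio of the 2 CAF-1 subunits 1.12-fold higher in shCREPT. CHAF1A over UHRF1 (0.00 ± 0.16) and CHAF1B over UHRF1 (−0.16 ± 0.09) also overlapped between groups. HMGA1 over UHRF1 was 1.80, 1.73 and 1.38 in shCREPT, against 0.27, 0.28 and 0.41 in shControl on the log2 scale. That ratio was 2.49-fold higher in shCREPT, that of HMGA1 to CHAF1A 2.49-fold and that of HMGA1 to CHAF1B 2.78-fold, with no overlap of the groups in any of these 3. The size of a ratio between genes is not read, since lengths may enter it; its difference between groups is.

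**Figure D3:**
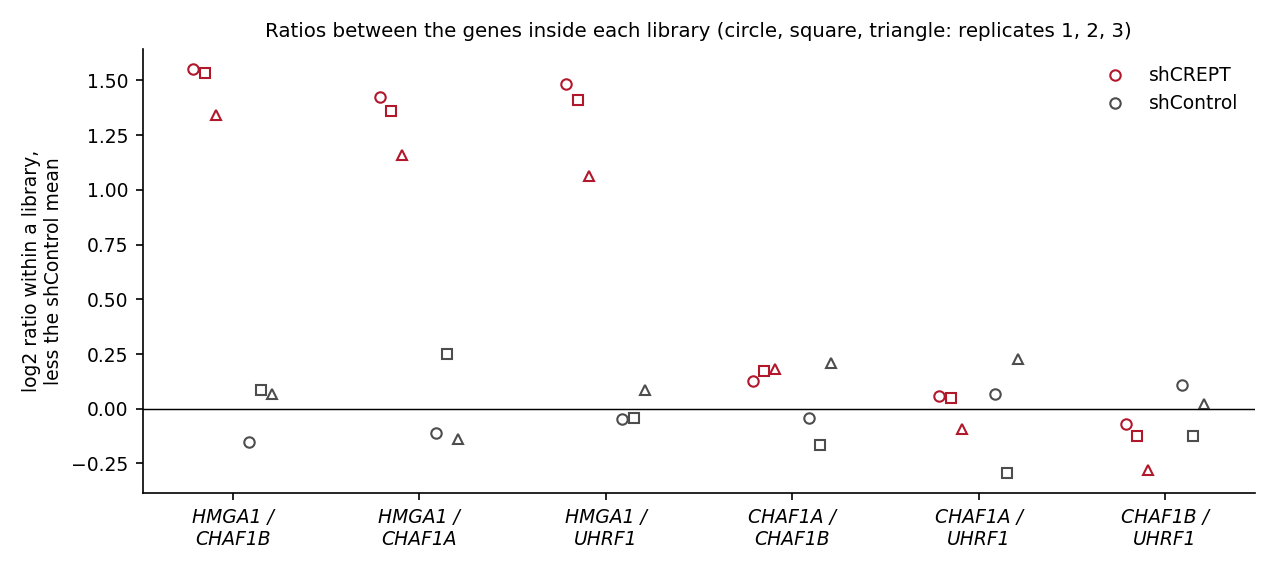
Log2 ratio of 2 genes inside each library, less the mean of that ratio over the shControl libraries, for the 6 pairs among the 4 genes; each point is 1 library. The 3 ratios with HMGA1 on top lie above 1 in every shCREPT library, and the 3 ratios among CHAF1A, CHAF1B and UHRF1 overlap between groups.

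Among the chaperones that work with CAF-1, ASF1B also rose. It passes H3 and H4 to CAF-1, and had values of 86.98, 86.01 and 84.33 in shCREPT, against 44.65, 41.54 and 43.53 in shControl. Its groups did not overlap: ASF1B was 1.98-fold higher, 0.97 ± 0.03 on the log2 scale (SE), at an adjusted p of 3.05e-05 by limma. Of all rows tested, 40.2% did not overlap with shCREPT above, and 40.6% were called higher by limma. Every row had been selected for this contrast, so neither result is separate evidence for ASF1B. The other 14 of the 17 genes listed for replication-coupled assembly have no row, among them RBBP4, the third CAF-1 subunit, PCNA and ASF1A. For UHRF1, the other 22 of 23 genes that write, erase or read DNA methylation have no row, DNMT1 and USP7 included. None of 16 genes of H3K9 methylation, the histone mark UHRF1 also reads, and none of 13 chaperones that act outside replication has a row. A missing row means only that a gene was not in the list of marked genes.

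Within the high mobility group family, HMGA2 and HMGN5 rose beside HMGA1, and the other 10 of 13 genes have no row. HMGA2, the closest relative of HMGA1 and like it an AT-hook protein, had values of 32.33, 28.40 and 31.34 in shCREPT, against 11.96, 10.77 and 11.99 in shControl. HMGN5, which binds nucleosomes, had 141.56, 140.52 and 117.87 in shCREPT, against 51.42, 52.54 and 51.60 in shControl. Their ratios were 2.65- and 2.57-fold, and their log2 changes 1.33 ± 0.07 and 1.34 ± 0.09 (SE; limma adjusted p = 1.93e-05 and 2.45e-05). In the authors' deposited table the folds of HMGA2 and HMGN5 are 2.34 and 2.89, in the reverse order. HMGA1 exceeded both genes. Inside a library its ratio to HMGA2 was 2.19-fold higher in shCREPT and its ratio to HMGN5 2.27-fold higher, with no overlap of the groups.

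Replication and E2F genes with a row moved the same way. Of 48 genes for the fork and licensing, 7 had a row and all 7 rose, with a median log2 change of 1.12: the helicase parts and loaders MCM4, MCM10, CDC6, CDT1 and ORC1, and the checkpoint adaptors TIPIN and CLSPN. Of 33 genes for E2F, RB and MYC, 4 had a row and all 4 rose, with a median of 1.26: MYC, the phosphatase CDC25A, and the transcription factors E2F1 and E2F7. Counting each gene once, 14 of the 156 listed genes beside the 4 had a row, and 14 rose by 1.98- to 3.71-fold (limma adjusted p up to 0.000228). The median log2 change was 1.15 over these 14, against 1.11 over all rows called higher and −0.76 over all rows tested. In the table tested, 40.6% of rows were called higher and 57.3% lower by limma, and every row had been selected for this contrast, so the count of 14 is no separate evidence. HMGA1, with 2.51, lay above the highest of the 14, MYC with 1.83. Its ratio to MYC inside a library was 1.57-fold higher in shCREPT, and the ratio of E2F1 to CHAF1B overlapped between groups, with a log2 difference of 0.01 ± 0.05 (SE). For MCM4 the ratio of means, 2.99, exceeds the fold of 2.29 in the authors' deposited table. Of the 14 genes, 11 had a RefSeq promoter window. The first window listed held an E2F core in 7 of those (13.0% of all windows), a GC box in 9 (45.0%) and a CCAAT box in 9 (34.6%). The E-box was in 0 of the 11 (7.26% of all windows), the AP-1 letters in 0 (4.95%) and the CHR in 1 (16.4%). These letters were chosen with the sequences of the 4 in view. The share over all windows counts every window of a gene, and the G and C content of the 11 windows was not compared. The counts are therefore not read as enrichment.

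Only 2 histone genes have a row, and they moved in opposite directions. H2BC4 had values of 9.65, 9.63 and 14.36 in shCREPT, against 4.72, 4.36 and 2.32 in shControl, and rose by 1.36 ± 0.30 on the log2 scale (SE; limma adjusted p = 0.00161). H3C6 had values of 1.33, 1.75 and 1.72 in shCREPT, against 4.65, 5.03 and 4.84 in shControl, and its log2 change was −1.17 ± 0.08 (SE), with a limma adjusted p = 3.66e-05. Of the rows tested in this selected table, 40.6% were called higher and 57.3% lower by limma, so these calls are no separate evidence. Histone genes are near-identical copies, so the division of reads between them is uncertain.

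**Figure D4:**
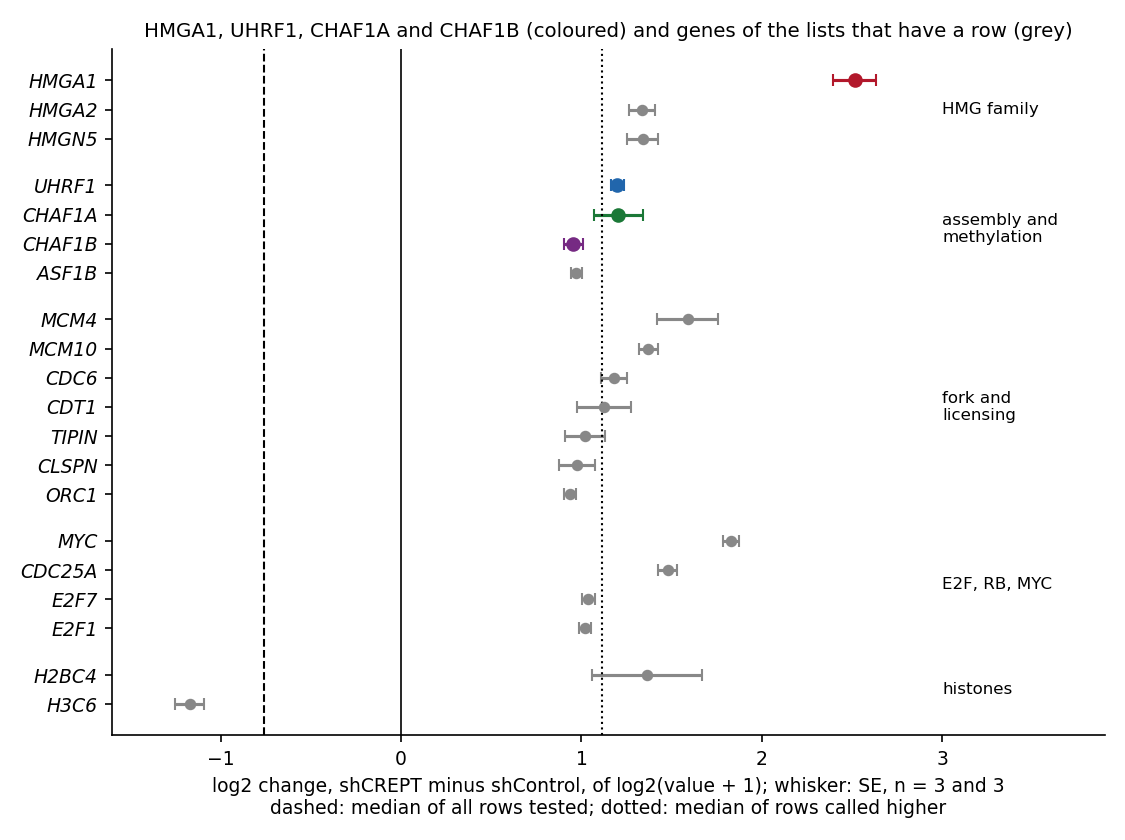
Log2 change, shCREPT minus shControl, of log2(value + 1) with its SE (3 libraries a group) for the 4 genes in colour and for other listed genes and histones in grey. HMGA1 stands at 2.51, and UHRF1, CHAF1A and CHAF1B at 0.96 to 1.20 lie among the replication and E2F genes, near the dotted median of 1.11 of rows called higher.

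The rows with the most similar profile were found by Euclidean distance between values of log2(value + 1), centred on each gene's mean, over the 6 libraries. Profiles were not scaled, so the size of the group difference, known when the 4 genes were picked, weighs heavily in this distance. A near row is therefore largely a row with a similar change, and nearness is no separate evidence of a link. For CHAF1B the nearest of all other rows was ASF1B (distance 0.07), followed by the recombination gene XRCC2 (0.13) and E2F1 (0.13); the median distance over all rows was 1.85. The log2 ratio of ASF1B to CHAF1B inside a library was nonetheless slightly lower in shCREPT, by a difference of −0.08 ± 0.03 (SE), with no overlap of the groups. For CHAF1A they were the nucleolar gene GPATCH4 (0.17), BRCA1 (0.17) and the transcription factor SALL1 (0.21), with a median of 2.14. BRCA1, a DNA repair gene, had 55.81, 51.91 and 48.28 in shCREPT, against 20.48, 19.72 and 25.57 in shControl, and shared with CHAF1A a highest shControl value in replicate 3. For UHRF1 they were ELFN2 (0.08), TCOF1 (0.08), a factor of ribosome production, and the stress gene GADD45A (0.08), with a median of 2.10. The added 1 shrinks the change of low rows in this distance. ELFN2, at 3.06 to 3.12 in shCREPT and 0.80 to 0.81 in shControl, was 3.83-fold higher by ratio of means, against 2.33-fold for UHRF1. For HMGA1 the nearest rows were the antisense transcript CCDC90B-AS1 (0.18), the kinase LRRK1 (0.18) and HHLA1 (0.22), with a median of 3.69. CCDC90B-AS1, at 1.86 to 2.61 in shControl, was 7.92-fold higher in shCREPT, against 5.84-fold for HMGA1. The other 3 genes were much farther from HMGA1, with UHRF1 at 1.64, CHAF1A at 1.64 and CHAF1B at 1.92. Among UHRF1, CHAF1A and CHAF1B the distances were 0.37 to 0.41. As neighbours of each other they ranked 74 to 155, so none of them had another of the 4 among its 3 nearest rows.

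Coordinates are from GENCODE v29 on GRCh38, the build named in the submitters' processing notes. HMGA1 spans chromosome 6, 34236873 to 34246231, with 6 annotated transcripts. Its value covers all of them, so its splice forms are not told apart. GENCODE lists 8 genes named as HMGA1 pseudogenes (HMGA1P1 to HMGA1P8), none with a row, and how reads were divided between HMGA1 and these copies is uncertain. CHAF1A spans chromosome 19, 4402662 to 4445018, and overlaps an antisense transcript over 1246 bases and UBXN6 over 20 bases on the other strand. UHRF1 lies 458 kb farther along the same chromosome, at 4903080 to 4962154. CHAF1B spans chromosome 21, 36385378 to 36419015, and its first 771 bases overlap the end of MORC3. The labels do not say whether strand was kept, so reads in the overlaps of CHAF1A cannot be assigned with certainty. MORC3 lies on the same strand as CHAF1B, so strand would not tell apart the reads they share. None of these overlapping genes has a row.

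RPRD1B has no row, so the target of the hairpin is not among the genes the authors marked as changed. Rows in the authors' deposited table have an absolute log2 fold of 1.0009 or more and an adjusted p of 0.0497 or less. The level of RPRD1B is not given, so the knockdown itself could not be checked here. The depth of the libraries is unknown; their listed values summed to 31893.69 to 33036.33 in shCREPT and 32475.69 to 33330.8 in shControl. The mitochondrial ribosomal RNA MT-RNR1 moved with the groups, at 5918.53 to 6891.8 in shCREPT and 3038.14 to 3497.15 in shControl, and its part in these results was not tested. The defining astrocyte filament gene GFAP, expressed by this line, was 43.12 to 49.81 in shCREPT and 421.04 to 447.81 in shControl. Of 6 astrocyte markers 3 have a row and all fell, although SLC1A3 lost its call under median-of-ratios rescaling. The 3 summed to 72.53 to 88.86 in shCREPT and 498.32 to 528.49 in shControl. Over all rows tested, 57.3% were called lower by limma, and every row had been selected for this contrast. The 8 markers of microglia and macrophages and the 7 of T cells are all without a row. Of 6 fibroblast markers 2 have a row, summing to 431.57 to 492.38 in shCREPT and 1084.6 to 1099.16 in shControl. COL3A1, 1 of these 2, lay at 0.00 to 0.39 and did not reach the filter for testing. Of 5 endothelial markers 2 have a row, summing to 11.64 to 13.66 in shCREPT and 43.28 to 45.26 in shControl. KDR, 1 of these 2, also lost its call under median-of-ratios rescaling. The part of the marker genes in the results was not tested.

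The 4 log2 changes were above 0 under each scaling tried, and their size depended on the scaling. This direction is no separate evidence, since the genes were picked with their change known from a table of marked rows. A median-of-ratios rescaling moved the median log2 change of the rows tested by 0.63, to −0.12. It divided shCREPT values by 0.74 to 0.75 and shControl values by 1.38, so it could only raise each change. The log2 changes became 3.39 for HMGA1, 2.07 for UHRF1, 2.07 for CHAF1A and 1.74 for CHAF1B. Relative to the median of all rows tested, HMGA1 was 3.27 higher as deposited and 3.51 higher after that rescaling, UHRF1 1.96 and 2.19, CHAF1A 1.96 and 2.19, and CHAF1B 1.71 and 1.86. The order, with HMGA1 highest and CHAF1B lowest, was the same under every setting plotted, while UHRF1 and CHAF1A did not differ beyond their spread.

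**Figure D5:**
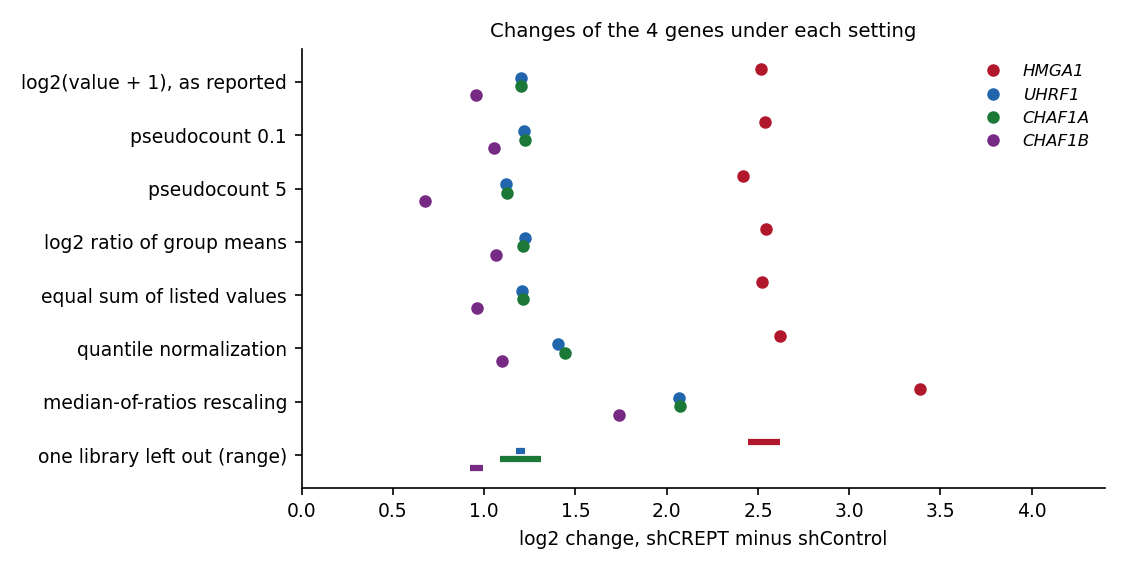
Log2 change, shCREPT minus shControl, of the 4 genes under each setting; points are values, and the bars in the last line are the range when 1 library is left out. All values are above 0, and HMGA1 stands at 3.39 under median-of-ratios rescaling, with 2.51 as reported.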

How the data were processed

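Total RNA of U87MG cells was measured in 6 libraries, 3 shCREPT and 3 shControl, grouped by their titles. The submitters' processing notes list HISAT2 and HTSeq as tools and GRCh38 as the build, without versions. Per the file headers, the deposited table holds a normalized signal per library, which the authors wrote with 2 decimals; how it was normalized is not stated. Per the file headers it also holds, for each gene, a fold (ratio) by the authors. The log2 of that fold is deposited beside it. A deposited p-value and its adjusted form complete the row. The table is limited to genes marked significant, so the depth is unknown, no interval from counts was possible, and p-values were computed on a selected table.

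The genes, lists, motifs and tests were chosen with earlier results of these data known. Values were transformed as log2(value + 1). Rows had to reach 1 in 3 or more libraries (1184 tested, 446 not), and limma 3.58.1 in R 4.3.3 compared the groups over all of them, calling a row at a Benjamini-Hochberg adjusted p of 0.05. The step was tested on simulated data. The 4 genes were part of that fit, but are described without its p-values. Genes named were the 4, the 3 rows nearest to each, and listed genes with a row. Gene identifiers were matched to GENCODE v29 (1549 matched, 81 did not), and promoter sequences came from RefSeq on GRCh38.p14. The most alike pair of libraries differed in 95.95% of rows, so none was counted as a repeat. Alternatives were other pseudocounts, filters and scalings, limma with trend and robust options, a replicate block and each library left out. Python 3.11.15, pandas 2.3.3, numpy 2.4.6 and matplotlib 3.10.9 were used for the rest.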

Additional observations from a re-analysis of the deposited data

How the results depend on the processing

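The 4 log2 changes, of genes picked with their change known, were above 0 under every setting tried. Median-of-ratios rescaling gave 3.39 for HMGA1, 2.07 for UHRF1, 2.07 for CHAF1A and 1.74 for CHAF1B, and quantile normalization gave 1.41 for UHRF1, 1.44 for CHAF1A and 1.10 for CHAF1B; both take their scale from the listed rows by construction. A pseudocount of 5 shrinks low genes by construction and gave 1.12 for UHRF1 and 0.68 for CHAF1B, while 0.1 gave 1.05 and the log2 ratio of means 1.07 for CHAF1B. With 1 library left out, HMGA1 ranged from 2.45 to 2.62, UHRF1 from 1.18 to 1.23, CHAF1A from 1.09 to 1.31 and CHAF1B from 0.92 to 0.99. The log2 difference of the CHAF1A to CHAF1B ratio ranged from 0.08 to 0.26; it was 0.16 with all libraries, 0.25 with a pseudocount of 1, 0.08 without shControl replicate 2 and 0.26 without shControl replicate 3.

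Limma called 1159 rows, 41.5% of them higher, and 1137 to 1152 rows with 1 library left out. A minimum of 10 left 487 rows to test and called 485. Median-of-ratios rescaling called 863, of which 57.0% were higher and 43.0% lower. Under it the falls of the markers SLC1A3 and KDR lost their call (limma adjusted p = 0.23 and 0.123), while the 14 listed genes kept theirs. The labels give both groups replicate numbers 1 to 3. Deviations from the group means correlated across genes at r = −0.11, 0.02 and −0.18 for libraries of 1 number, and at −0.11 to 0.20 for those of different numbers, so the numbers were not taken as pairs, and the fit with the replicate block called 1156 rows and left the 4 log2 changes at 2.51, 1.20, 1.20 and 0.96. Depth is unknown and sets no bound.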

Other observations

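Rows of the table that lie near the 4 genes were counted from the annotation, within 1 Mb on either side. CHAF1A and UHRF1 are neighbours on this scale, and 7 of 90 annotated genes around UHRF1 have a row. The authors' deposited table marks 4 of them up, EBI3, CHAF1A, SEMA6B and TICAM1, and 3 down, PTPRS, HSD11B1L and AC104532.1. Around CHAF1A, 5 of 93 annotated genes have a row, 4 marked up, UHRF1 among them, and 1, PTPRS, marked down in the authors' deposited table. Around HMGA1, 2 of 73 genes have a row, SCUBE3 and AL354740.1, and both are marked down in the authors' deposited table. Around CHAF1B, none of 56 genes has a row. EBI3, SEMA6B, TICAM1 and PTPRS lie in the windows of both UHRF1 and CHAF1A and are counted in each. Of all 1630 rows, 40.3% are marked up in the authors' deposited table. The share of all annotated genes that have a row was not counted, so the counts around the 4 genes are not read as clustering. These genes were named after their values were seen.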
